A study of Rattus norvegicus with 2 samples.

Results

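Integrins and laminins are the 2 sides of the contact between a cell and its basement membrane, and 41 of the 23282 genes of the deposited table belong to them or to their nearest partners. They were chosen by gene symbol alone: every integrin alpha and beta chain, every laminin alpha, beta and gamma chain, the nidogens Nid1 and Nid2, agrin (Agrn) and dystroglycan (Dag1). Hspg2, which the same rule names, was not analysed here. RNA was sequenced from 2 libraries of untreated wild-type rat embryonic stem (ES) cells. The design text names them biological replicates, but nothing states that they came from separate cultures, so their spread may be technical. Both came from the Dark Agouti line DA-EC8/Rrrc of the Rat Resource Center, at passage 30, labelled with a normal karyotype and grown in 2i medium, which holds inhibitors of MEK and GSK3. There is 1 group and 1 line, so nothing could be compared between conditions, and the spread between the replicates is the only error that could be measured.

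Laminins are secreted trimers of 1 alpha, 1 beta and 1 gamma chain that polymerise into the basement membrane sheet. Integrins are receptors made of 1 alpha and 1 beta chain, and the pair decides which matrix protein is bound. In the mouse embryo a laminin sheet forms under the early epiblast, where beta-1 integrins and dystroglycan both act as laminin receptors. Nidogens bind the laminin gamma-1 chain and join the sheet to type IV collagen, and agrin binds both laminin and dystroglycan.

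Values are RPKM (read number divided by gene model length in kilobases and by library size in units of 1000000). The unit is corrected for length, so levels of different genes are set side by side, within the limits given below. Means are given ± SD over 2 replicates, and a mean of at least 1 RPKM counts as detected. The smallest read totals that turn a set of short genes into whole reads were 2991184 in replicate 1 and 3050685 in replicate 2. Larger multiples of these totals are possible, so the read numbers given are minimum ones. A floor of 3 reads in a 2-kb gene model lies at 0.501 and 0.492 RPKM in replicates 1 and 2, and such limits cover counting error only. All 10 ES cell markers examined were detected, led by Utf1, Pou5f1, Tdgf1 and Sox2, with Klf4 lowest. Of 15 fibroblast or feeder markers 4 were detected (Col1a1, Col3a1, Thy1 and Tagln), none at 10 RPKM, and 6 were listed at 0, among them Col1a2 and Acta2. Of 12 primitive or parietal endoderm markers 3 were detected (Sparc, Amn and Sox17, ahead of Dab2), and Gata4, Gata6 and Foxa2 were listed at 0. No blood cell marker of 7 was detected, the highest being Cd68, Lyz2, Spi1 and Ptprc. Cd68 had 0.836 and 1.09 RPKM in replicates 1 and 2, a mean just below the limit. Trophoblast markers reached 3 of 7 (Tfap2c at 106, Eomes at 21.9 and Cdx2 at 2.10 RPKM, ahead of Elf5), with Gata3 and Hand1 listed at 0. Endothelial or muscle markers reached 2 of 8 (Pecam1 at 61.6 and Des at 4.58 RPKM, ahead of Tek and Ckm). Cdh5, Kdr, Myod1 and Myog were listed at 0. Genes that every cell uses, such as Rps6, are also listed at 0, and a listed 0 is therefore no proof of silence. Glycolysis genes, named after their values were seen, ranged from Tpi1 at 6.85 and Gapdh at 23.2 RPKM to Pgk1 at 1292 and Aldoa at 2287 RPKM. Levels above 0 may therefore be too low for some genes as well. In bulk RNA, few cells with much of a transcript and many cells with little of it cannot be told apart.

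Of the 41 genes 19 (46.3%) were detected, against 46.4% of all genes of the table, a near-identical share. At 10 RPKM or more stood 14, against 29.4% of all genes. Another 10 were listed at 0 in both replicates, as were 38.2% of all genes, and 12 lay above 0 but below 1 RPKM. The levels fell into separate ranges within each of the 5 chain classes: 1 to 3 chains stood at 14.8 RPKM or more, and the next chain of the same class was at 4.10 RPKM or less. The median of the 19 detected genes was 23.6 RPKM, against 16.7 RPKM over all 10814 detected genes of the table.

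**Figure D1:**
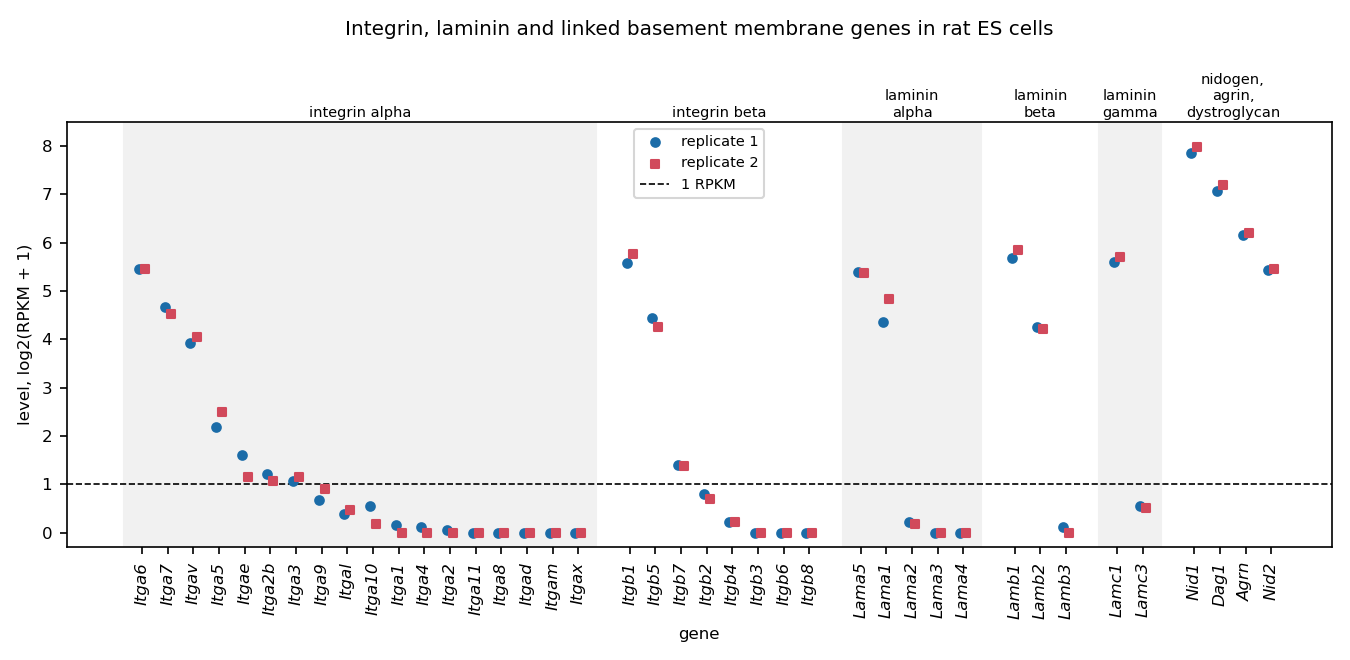
Level of 40 of the 41 genes on the log2(RPKM + 1) scale (vertical axis), by chain class and in falling order of the mean within it (horizontal axis); circles are replicate 1, squares replicate 2, and the dashed line marks 1 RPKM. In each chain class 1 to 3 genes stand high and the others lie near or below the line, while the nidogens, agrin and dystroglycan are all at 42.5 RPKM or more.

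The laminin genes gave a narrow set of chains: Lama5 and Lama1 of 5 alpha chains, Lamb1 and Lamb2 of 3 beta chains, and Lamc1 of 3 gamma chains. Lama5, the alpha chain widespread in embryonic and adult basement membranes (Entrez gene 140433, rn5 chromosome 3, 181517512 to 181565641), had 41.0 and 40.2 RPKM in replicates 1 and 2, a mean of 40.6 ± 0.503. Lama1, the alpha chain of the early embryonic sheet (Entrez gene 316758, rn5 chromosome 9, 115406905 to 115531632), had 19.6 and 27.5 RPKM in replicates 1 and 2, a mean of 23.6 ± 5.58. Lama5 was above Lama1 in both replicates, by 2.08-fold in replicate 1 and 1.46-fold in replicate 2. Together they made up almost all laminin alpha transcript: Lama5 took 63.3 ± 5.76% and Lama1 36.4 ± 5.82% of the summed alpha chain RPKM. Lama2, the alpha chain of muscle and nerve, had 0.172 and 0.135 RPKM in replicates 1 and 2, or 5 and 4 reads. Lama3, the alpha chain of the skin's anchoring laminin, and Lama4, that of blood vessels, were listed at 0 in both.

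Among the beta chains Lamb1, the partner used by most embryonic laminins, was highest at 50.5 and 56.4 RPKM in replicates 1 and 2. Lamb2, its counterpart at the synapse and in the kidney filter, had 18.1 and 17.6 RPKM in replicates 1 and 2. The replicates of Lamb1 and Lamb2 lay far apart, with Lamb1 2.79-fold higher in replicate 1 and 3.21-fold higher in replicate 2. Lamb3, the chain specific to the skin laminin, had 0.0820 RPKM in replicate 1, a single read, and was listed at 0 in replicate 2.

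The gamma chain came almost wholly from 1 gene. Lamc1, shared by most laminins, had 47.6 and 51.0 RPKM in replicates 1 and 2 and took 98.5 ± 0.286% of the summed gamma chain RPKM. Lamc3, found in a few adult basement membranes, had 0.475 and 0.414 RPKM in replicates 1 and 2, or 9 and 8 reads, whereas Lamc1 rested on at least 1088 and 1187 reads.

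Laminin trimers are named by the numbers of their alpha, beta and gamma chains. Of 14 textbook trimers 4 had all chains detected, and the same 4 had all chains at 10 RPKM or more: laminin-511, laminin-111, laminin-521 and laminin-121. The RNA level of the lowest chain was taken as the ceiling of a trimer. Protein levels were not measured, so this ceiling describes RNA only. For laminin-511 that chain was Lama5, at 40.6 ± 0.503 RPKM, and for laminin-111 it was Lama1, at 23.6 ± 5.58 RPKM. Laminin-521 and laminin-121 were both limited by Lamb2, at 17.8 ± 0.374 RPKM. These ceilings cannot be added up, since the trimers draw on shared chains. Over all detected chains Lamc1, at 49.3 ± 2.35 RPKM, was lower than the beta chains Lamb1 and Lamb2 summed, at 71.3 ± 3.82 RPKM, and lower than the alpha chains Lama1 and Lama5 summed, at 64.2 ± 5.08 RPKM. This order of the sums held in both replicates. Another 7 trimers lacked 1 chain, and 3 lacked more. RNA levels say nothing of which trimers were assembled or secreted.

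**Figure D2:**
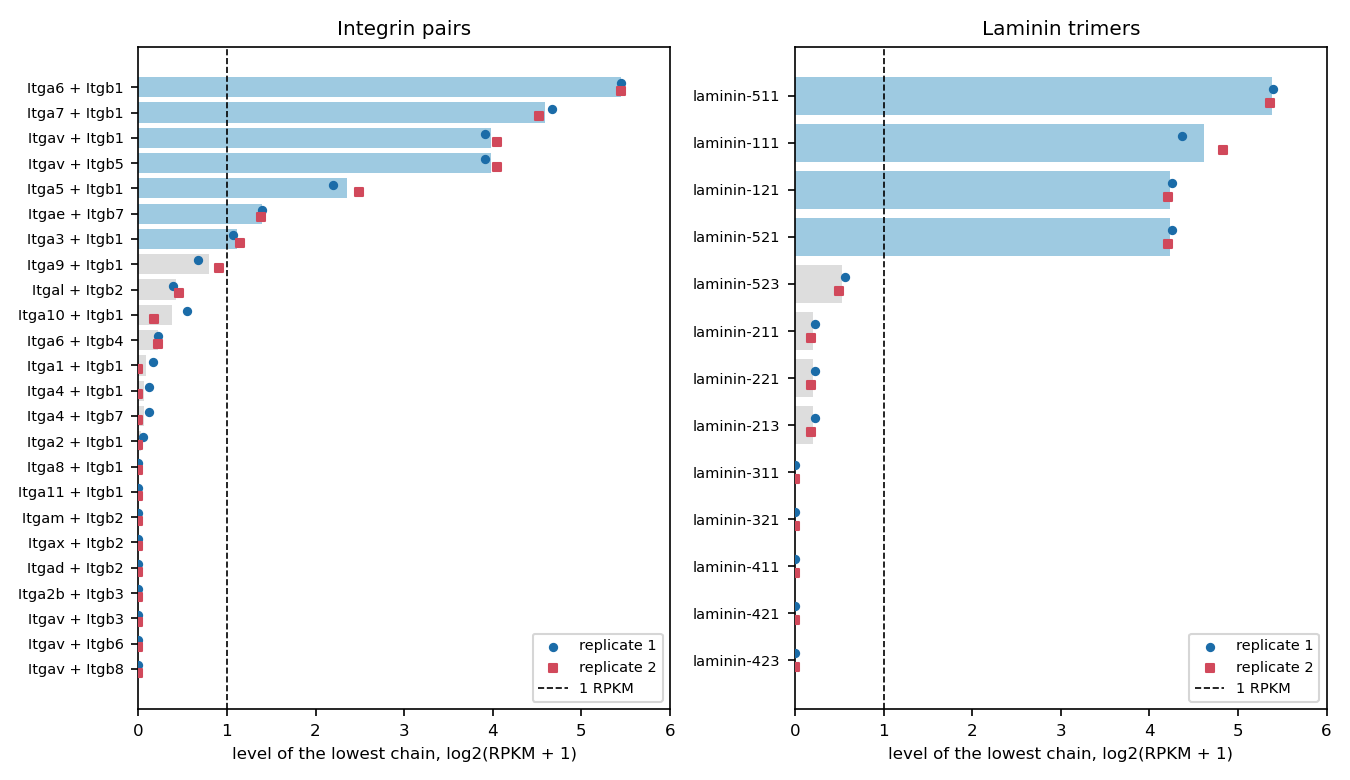
Level of the chain with the lowest mean in each of 24 integrin pairs (left) and 13 of the 14 laminin trimers (right) on the log2(RPKM + 1) scale; bars are means, circles replicate 1, squares replicate 2, the dashed line marks 1 RPKM, and blue bars are complexes with every chain at 1 RPKM or more. Of the integrin pairs 7 pass the line and of the laminin trimers 4, with Itga6 with Itgb1 and laminin-511 at the top.

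Promoter sequence was set beside the levels for the 20 of the 41 genes whose entry in the RefSeq promoter table (GRCr8 build) began within 100 bases of the outermost annotated start. Each window held 250 bases before and 50 bases after that start. Windows rich in CG dinucleotides usually mark widely used promoters. The median count was 27 CG per window in the 8 detected genes and 11.5 in the 12 others, against 22 over 5595 detected genes and 4 over 5509 others of the table treated the same way. Among chains at 14.8 RPKM or more with a usable window, Lama1 departed from the others, with 8 CG. Lama5 and Itgav had 27, Lamc1 28, Itgb1 35 and Itgb5 45. Itga6, Itga7, Lamb1 and Lamb2, also at such levels, had no usable window. The motif GGGCGG, the GC box bound by Sp1-type factors, was found on either strand in 5 of the 8 windows and in 7 of the 12. It was also in 67.1% of the windows of all detected genes, in 24.7% of those of the other genes and in 34.9% of all 27457 promoters of that table. The TATA box motif TATAAA was in none of the 8 and in 1 of the 12, that of Lama4, against 6.02% of the windows of all detected genes, 21.6% of those of the other genes and 14.3% of all promoters. A match to these letters describes the window and does not show that a factor binds there. The 150 bases just before the start are shown for the 2 detected laminin alpha chains and an alpha chain listed at 0, and for the main integrin beta chain and a beta chain listed at 0, with each CG in capitals. In GRCr8 they lie at chr3:187695975-187696124 on the minus strand (Lama5), chr9:115139398-115139547 on the plus strand (Lama1), chr20:43946748-43946897 on the plus strand (Lama4), chr19:73602127-73602276 on the plus strand (Itgb1) and chr6:146351246-146351395 on the minus strand (Itgb8).
Lama5: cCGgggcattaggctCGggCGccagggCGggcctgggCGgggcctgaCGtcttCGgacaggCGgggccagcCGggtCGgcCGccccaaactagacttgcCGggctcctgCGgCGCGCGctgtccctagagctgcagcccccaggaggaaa
Lama1: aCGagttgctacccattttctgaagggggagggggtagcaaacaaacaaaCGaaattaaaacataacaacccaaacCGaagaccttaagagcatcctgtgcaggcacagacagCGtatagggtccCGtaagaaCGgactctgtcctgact
Lama4: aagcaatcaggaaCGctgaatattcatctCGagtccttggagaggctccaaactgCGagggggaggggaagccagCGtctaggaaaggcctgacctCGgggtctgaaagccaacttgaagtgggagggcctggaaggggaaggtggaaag
Itgb1: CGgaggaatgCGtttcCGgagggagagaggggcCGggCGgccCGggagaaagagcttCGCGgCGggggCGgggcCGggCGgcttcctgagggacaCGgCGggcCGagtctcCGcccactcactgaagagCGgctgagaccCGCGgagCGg
Itgb8: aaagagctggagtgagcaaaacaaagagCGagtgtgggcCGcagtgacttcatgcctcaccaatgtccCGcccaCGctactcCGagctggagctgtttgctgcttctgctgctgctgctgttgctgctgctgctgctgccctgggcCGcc
These stretches held 16 CG in Lama5, 6 in Lama1, 5 in Lama4, 20 in Itgb1 and 6 in Itgb8. Within them Lama1, which was detected, and Lama4, which was listed at 0, differed by a single CG. In the full promoter windows the order was reversed, with 12 CG in Lama4 and 8 in Lama1.

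**Figure D3:**
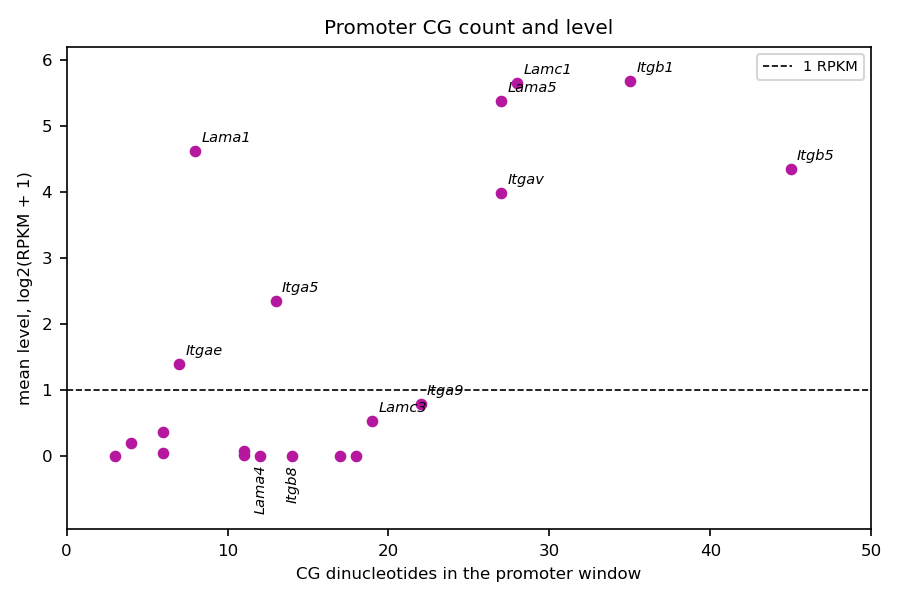
Mean level on the log2(RPKM + 1) scale (vertical axis) against the number of CG dinucleotides in the 300-base promoter window (horizontal axis) for 20 genes; points below 0.4 RPKM are unlabelled except Lama4 and Itgb8, and the dashed line marks 1 RPKM. Lama1 stands high at 8 CG, whereas Lama5, Lamc1, Itgav, Itgb1 and Itgb5 have 27 or more.

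Nidogens, agrin and dystroglycan, which join the sheet together and to the cell, held the 3 highest levels of the whole set. Nid1 (Entrez gene 25494, rn5 chromosome 17, 92214765 to 92287938) had 233 and 254 RPKM in replicates 1 and 2, a mean of 243 ± 14.7, and ranked 241 among all 23282 genes. Nid1 was 4.93 ± 0.0637 times as high as Lamc1, the chain that nidogen binds. Nid2, its relative with a like role, was at 42.4 and 42.6 RPKM in replicates 1 and 2, so Nid1 was 5.72 ± 0.326 times as high. Dag1, which encodes both subunits of the laminin receptor dystroglycan (Entrez gene 114489, rn5 chromosome 8, 116334176 to 116346857), had 134 and 145 RPKM in replicates 1 and 2 and ranked 584. Agrn had 70.2 and 72.7 RPKM in replicates 1 and 2. No replicate of Nid1, Dag1 or Agrn overlapped one of the next gene in the order of levels.

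Among the receptors, integrin alpha chains were led by those that bind laminin. Itga6, a chain of the laminin receptors found on most epithelia and stem cells (Entrez gene 114517, rn5 chromosome 3, 64931694 to 65003370), had 42.6 and 42.8 RPKM in replicates 1 and 2. Itga7, a laminin-binding chain best known from muscle (Entrez gene 81008, rn5 chromosome 7, 3325443 to 3354358), had 24.3 and 22.0 RPKM in replicates 1 and 2. Itgav, which binds proteins with an RGD sequence such as fibronectin and vitronectin, had 14.1 and 15.5 RPKM in replicates 1 and 2. Itga6 took 47.3 ± 0.417%, Itga7 25.7 ± 1.65% and Itgav 16.4 ± 1.25% of the summed alpha chain RPKM. Itga6 stood above Itga7, and Itga7 above Itgav, in both replicates.

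The remaining detected alpha chains were much lower. Itga5, the classical fibronectin receptor chain, had 3.58 and 4.63 RPKM in replicates 1 and 2, so that Itga6 was 11.9-fold higher in replicate 1 and 9.25-fold higher in replicate 2. Itgae, which binds E-cadherin on epithelia, had 2.05 and 1.22 RPKM in replicates 1 and 2, or 23 and 14 reads. Its locus overlaps LOC687827 on the opposite strand by 2788 bp, which had 8.15 and 9.05 RPKM in replicates 1 and 2. The sources used here do not say that counting used strand, so the level of Itgae is uncertain. Itga2b, the platelet fibrinogen receptor chain, had 1.31 and 1.09 RPKM in replicates 1 and 2. Itga3, a laminin receptor chain of skin, kidney and lung, had 1.10 and 1.21 RPKM in replicates 1 and 2, at 16 and 18 reads, and its locus overlaps Samd14, listed at 0, on the opposite strand. Itga2b and Itga3 overlapped between replicates and cannot be ordered. Itga9, which binds tenascin, was just below the limit at 0.595 and 0.875 RPKM in replicates 1 and 2. The leukocyte chain Itgal had 0.307 and 0.376 RPKM in replicates 1 and 2, and the cartilage collagen receptor chain Itga10 had 0.465 and 0.130 RPKM. Itga1 and Itga2, common collagen receptor chains, and Itga4, the Vcam1 receptor chain, were above 0 in replicate 1 only, at 0.118, 0.0344 and 0.0895 RPKM. The locus of Itga1 overlaps Pelo on the same strand, which had 16.5 and 19.7 RPKM in replicates 1 and 2. Itga8, Itga11, Itgad, Itgam and Itgax were listed at 0. The last 3 are leukocyte chains that lie side by side on rn5 chromosome 1, with gaps of 10.6 kb and 28.1 kb.

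Of 8 beta chains 3 were detected, and Itgb1 led. Itgb1, the most widely shared partner (Entrez gene 24511, rn5 chromosome 19, 72324612 to 72372325), had 47.2 and 53.7 RPKM in replicates 1 and 2. Itgb5, which pairs with Itgav alone, had 20.9 and 18.0 RPKM in replicates 1 and 2. Itgb1 took 69.6 ± 4.01% and Itgb5 26.9 ± 3.75% of the summed beta chain RPKM, and Itgb1 was above Itgb5 in both replicates. Itgb7, a lymphocyte chain, was at 1.64 and 1.61 RPKM in replicates 1 and 2, which is 13 reads in each. Itgb2, the common chain of leukocyte integrins, was at 0.748 and 0.629 RPKM in replicates 1 and 2. Itgb4, the hemidesmosome chain that pairs with Itga6, was at 0.171 and 0.167 RPKM in replicates 1 and 2, or 3 reads in each. Itgb3, Itgb6 and Itgb8, the other partners of Itgav, were listed at 0.

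Of 24 textbook integrin pairs 7 had both chains detected, and 5 of these shared Itgb1. Here too a ceiling is the RNA level of the lower chain and says nothing of which protein pairs formed. The laminin receptors with the highest ceilings were Itga6 with Itgb1, limited by Itga6 at 42.7 ± 0.0922 RPKM, and Itga7 with Itgb1, limited by Itga7 at 23.2 ± 1.65 RPKM. Itgav could pair with Itgb1 and with Itgb5, limited by Itgav at 14.8 ± 1.03 RPKM in each case. The fibronectin receptor of Itga5 with Itgb1 was limited at 4.10 ± 0.742 RPKM. Itga3 with Itgb1, at 1.16 ± 0.0801 RPKM, passed narrowly. So did Itgae with Itgb7, whose lower chain was Itgb7 at 1.64 RPKM in replicate 1 and Itgae, of uncertain level, at 1.22 RPKM in replicate 2. Itga6 with Itgb4, the hemidesmosome receptor, was limited by Itgb4 at 0.169 ± 0.00235 RPKM and was not among them. Nor were the 4 leukocyte pairs of Itgb2, for which no chain was detected. Itga2b was detected without its only partner, Itgb3.

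RNA sums of the chains differed on the beta-1 side, and protein was not measured. The 5 detected alpha chains that pair with Itgb1 summed to 85.7 and 86.2 RPKM in replicates 1 and 2, against 47.2 and 53.7 RPKM for Itgb1 itself. Itgav, which counts among the 5, has Itgb5 as a second partner at 19.4 ± 2.05 RPKM. The summed alpha chains exceeded Itgb1 in both replicates.

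Genes that act beside these receptors were described from lists, with the share of all genes detected, 46.4%, as the measure. Of 29 cytoplasmic partners of integrins 24 were detected, with a list median of 23.5 ± 0.444 RPKM. The highest were the actin linkers Actn4 at 267 ± 5.93 RPKM, Actn1 at 143 ± 5.17 RPKM and Flna at 135 ± 10.2 RPKM, and the kinase gene Src at 70.7 ± 1.24 RPKM. Rsu1, part of the complex around integrin-linked kinase, was the lowest detected, at 7.43 and 8.58 RPKM in replicates 1 and 2. Some relatives differed widely, and those named here were chosen after their values were seen. The integrin activator genes Fermt2 (41.7 ± 1.46 RPKM) and Tln1 (31.2 ± 3.25 RPKM) were detected, while Fermt1 had a mean of 0.485 RPKM and the blood cell member Fermt3 one of 0.0384 RPKM. The adhesion kinase gene Ptk2 was at 63.1 ± 1.81 RPKM, against 0.258 RPKM for its relative Ptk2b.

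Other laminin receptors and membrane partners of integrins were detected in 10 of 11 cases, with a list median of 5.33 ± 0.259 RPKM. Rpsa, a ribosomal protein gene that is also known as a laminin receptor and has near-identical pseudogenes that could share its reads, had 799 ± 9.86 RPKM and Cd9, a tetraspanin that binds integrins, 272 ± 3.17 RPKM. The tetraspanin gene Cd81 was at 54.6 ± 11.9 RPKM and Bcam, a receptor for the laminin alpha-5 chain, at 48.4 ± 1.42 RPKM. Lgals3 was the lowest detected, at 0.353 and 1.73 RPKM in replicates 1 and 2. Cd151, the tetraspanin that associates with laminin-binding integrins, was listed at 0.

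Ligands of the integrins other than laminins were uneven: 7 of 17 were detected, with a list median of 0.478 ± 0.0265 RPKM. Fn1, fibronectin, was the highest, with 664 and 771 RPKM in replicates 1 and 2, beside its low receptor chain Itga5. Mfge8, an RGD protein, was at 185 ± 7.19 RPKM, Cdh1, E-cadherin, at 163 ± 9.49 RPKM, and Icam1 at 13.9 ± 2.06 RPKM. The lowest detected was Tgfb1, at 2.04 ± 0.614 RPKM. Vtn, vitronectin, the ligand of the pair of Itgav and Itgb5, was listed at 0, and so were all 3 fibrinogen genes. Other basement membrane genes were detected in 8 of 18 cases, with a list median of 0.453 ± 0.0814 RPKM. Col18a1 was at 164 ± 5.03 RPKM, Fbln1, which binds laminin and nidogen, at 105 ± 8.16 RPKM, Col4a1 at 26.1 ± 0.773 RPKM, Pxdn, the enzyme that cross-links type IV collagen, at 9.98 ± 0.495 RPKM, and Ntn1 lowest at 2.82 ± 0.606 RPKM.

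Dystroglycan binds laminin only through a sugar chain. On the way to that chain 15 of 17 genes of enzymes or enzyme subunits were detected, with a list median of 15.5 ± 0.733 RPKM. They were led by Dpm2 at 50.2 ± 3.04 RPKM, Pomgnt1 at 36.3 ± 1.63 RPKM, Gyltl1b at 31.3 ± 0.312 RPKM and Dpm3 at 30.2 ± 1.96 RPKM. Large, which builds the laminin-binding repeat, was the lowest detected, at 2.39 and 2.44 RPKM in replicates 1 and 2. Gyltl1b encodes an enzyme related to that of Large and was the higher of the pair in both replicates. Of the 2 not detected, B3gnt1 was listed at 0 and Ispd, named after its value was seen, had a mean of 0.441 RPKM. Of 13 complex partners of dystroglycan 7 were detected, with a list median of 1.01 ± 0.705 RPKM. Dmd, dystrophin, was at 27.8 ± 2.06 RPKM and its relative Utrn at 19.7 ± 1.38 RPKM, ahead of Plec at 10.6 RPKM in each replicate and Dtnb at 10.5 ± 0.620 RPKM. The lowest detected was Sntb2, at 1.63 and 0.399 RPKM in replicates 1 and 2. The muscle sarcoglycan gene Sgca was listed at 0.

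**Figure D4:**
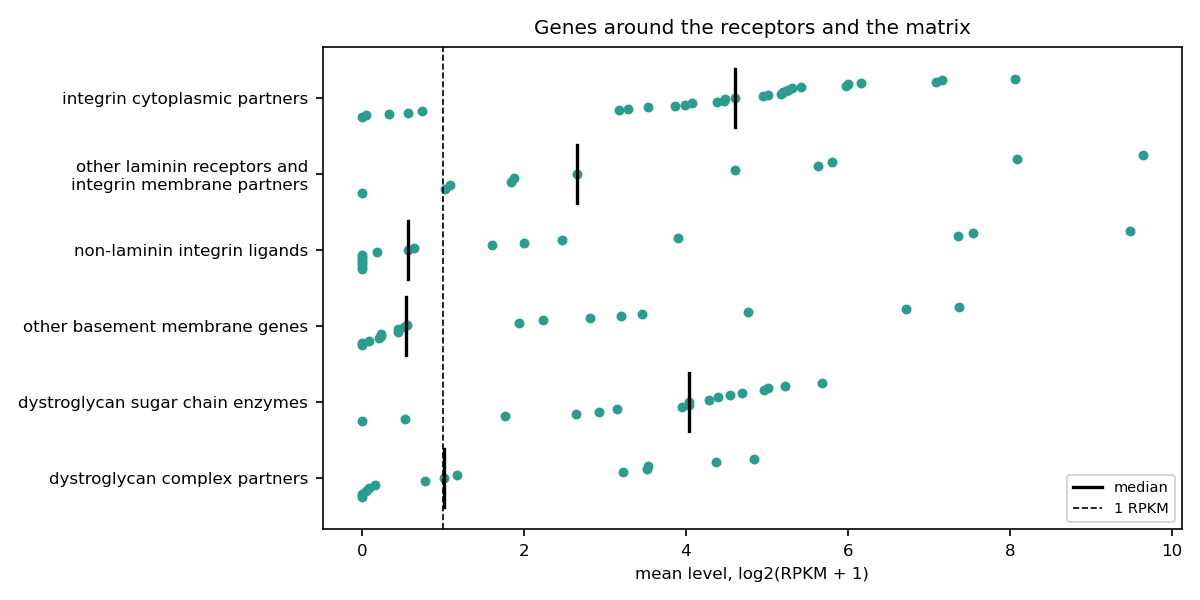
Mean level on the log2(RPKM + 1) scale (horizontal axis) of each gene in 6 lists around the receptors and the matrix (rows); a point is a gene, spread vertically in order of level, the solid bar is the list median and the dashed line marks 1 RPKM. The cytoplasmic partners (median 23.5 RPKM) and the dystroglycan sugar chain enzymes (15.5 RPKM) lie mostly right of the line, whereas the non-laminin ligands (0.478 RPKM) and other basement membrane genes (0.453 RPKM) are split.

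The replicates were close for nearly all of the 19 detected genes. None differed by more than 2-fold in RPKM + 1, against 0.721% of all detected genes, and 12 of 19 were higher in replicate 2, against 45.9%. Lama1 stood farthest apart, with a log2 ratio of replicate 2 over replicate 1 of 0.47 on the RPKM + 1 scale. Itgae followed at -0.46, where the SD over 1505 genes between 1 and 3 RPKM was 0.46. The SD of this ratio was 0.20 over the 3260 genes between 10 and 30 RPKM, of which 3.31% were as far from 0 as Lama1, in either direction. At least 621 reads in replicate 1 and 888 in replicate 2 lay behind Lama1, and its RPKM ratio had an exact 95% counting interval of 1.26 to 1.56. Such an interval excluded a ratio of 1 in 3 of the 18 detected genes with recovered reads (Lama1, Itgb1 and Dag1), against 7.37% of 8301 genes, and it compares these libraries only. Since the reads are minimum ones, the true intervals may be narrower and more of them may exclude 1. For Itgb1 the ratio was 1.14, with an interval of 1.05 to 1.24, and for Dag1 1.08, with an interval of 1.02 to 1.15. Among the 4 allowed laminins the ceiling of laminin-111, set by Lama1, had the widest spread, with an SD of 5.58 RPKM against 0.503 RPKM or less for the others.

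Among the marker lists of other cells, the summed level of the fibroblast or feeder list differed most in proportion between the replicates. The 15 fibroblast or feeder markers summed to 8.47 and 13.0 RPKM in replicates 1 and 2. Col1a1 (3.39 and 6.02 RPKM) and Col3a1 (1.32 and 3.16 RPKM) made up most of that difference, whereas Tagln had 1.91 and 0.624 RPKM. Col1a2, Acta2, Lum, Prrx1, S100a4 and Twist2 were listed at 0. The 12 primitive or parietal endoderm markers summed to 11.8 and 12.2 RPKM in replicates 1 and 2, with Gata4, Gata6, Sox7, Foxa2, Hnf4a and Afp listed at 0. The trophoblast markers summed to 127.8 and 133.5 RPKM, the endothelial or muscle markers to 69.7 and 63.4 RPKM and the blood cell markers to 1.62 and 1.43 RPKM in replicates 1 and 2. Tfap2c (103 and 109 RPKM) made up most of the trophoblast sum, and Pecam1 (63.9 and 59.4 RPKM) most of the endothelial or muscle sum. In those lists Gata3, Hand1, Cdh5, Kdr, Myod1 and Myog were listed at 0. The part of other cells in the level of Lama1 was not tested.

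**Figure D5:**
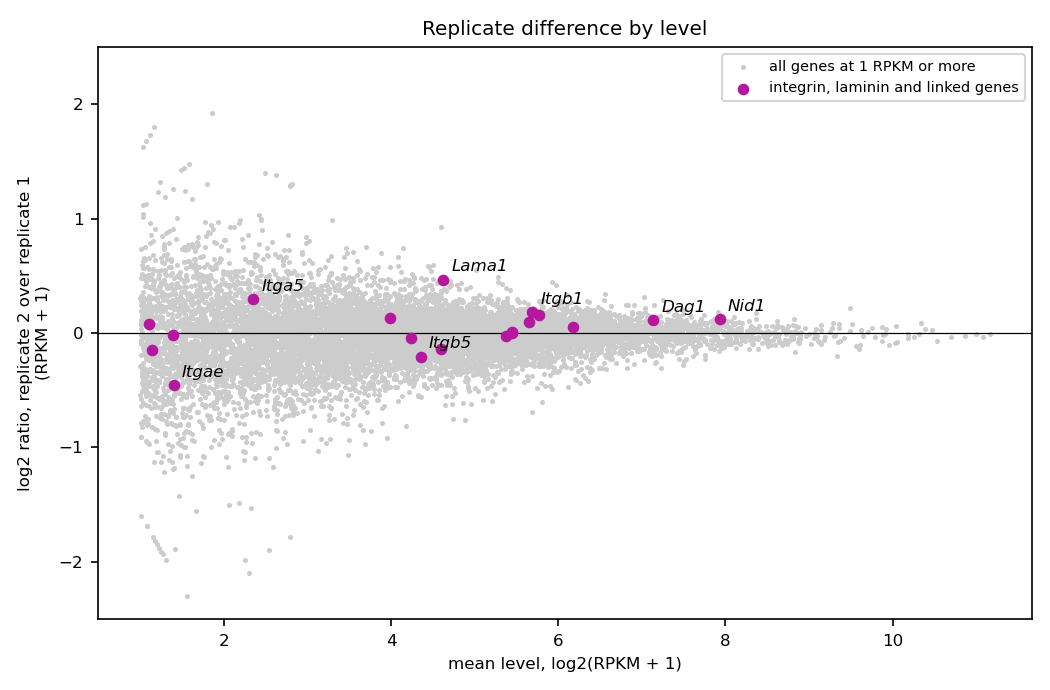
Log2 ratio of replicate 2 over replicate 1 (RPKM + 1, vertical axis) against the mean level (log2(RPKM + 1), horizontal axis); grey points are all 10814 detected genes and coloured points the 19 detected integrin, laminin and linked genes. Lama1, at 0.47, lies at the upper edge of the genes of its level, and the others lie within the grey band.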

How the data were processed

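The authors deposited 1 table of RPKM per gene, in which each of 2 libraries has a column that bears its title. The submitters' processing notes name CASAVA 1.8, TopHat 1.4.0 and the builds rn5 and Rnor_5.0. How reads were counted, whether by strand, and what became of multi-mapping reads is not given in the sources used here. Coordinates are those of the table (rn5) except for promoters (RefSeq, GRCr8).

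The 23716 rows were summed by Entrez identifier into 23282 genes, 420 of which had several rows. The 41 genes came from 42 rows, since Itga8 had 2. No count model was applied to RPKM, and with 1 group no test between groups exists. Ratios on the log2(RPKM + 1) scale are smaller than the true ones where levels are low. Read totals were those that made the most rows with a locus under 6000 bp whole, in 516 of 2700 rows in replicate 1 and 516 of 2688 in replicate 2. The reads of a gene came from the shortest model length, from 60 to 20000 bp, that made both libraries whole within a relative tolerance of 3e-07. They can be too few by a common factor, and none came out for Nid1. Intervals are exact (Clopper-Pearson) at the 95% level. Recovery of read totals, with model lengths known, and of the ratio of reads between replicates per gene was checked on simulated data. The read numbers themselves were not checked, and simulated models were shorter than those recovered for Itga6, Lama5 and Lama1. Detection and the lowest chain were checked on a toy example, and the other steps were not. In the real rows the locus length stood in for the model length, a harder case than the simulated one.

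The genes and the 12 lists of related genes and markers were chosen with earlier results of these data known. The genes found by symbol are all counted, and all but 1, which is not reported here, are named. Of each list the 4 highest and the lowest detected are named, with others marked as chosen after their values were seen or listed at 0. List members not analysed here were Plet1, Npnt, Col4a6, Ntn4, Pomgnt2 and Dtna. Of the 41 genes 30 matched the promoter table by identifier, and 11 did not, among them Dag1, Itga6, Itga7, Itgad, Itgal, Itgb2, Itgb3, Itgb4, Lamb2 and Nid2. A further 10 were left out because their window began elsewhere (Agrn, Itga2b, Itga3, Itga4, Itgax, Itgb6, Itgb7, Lama3, Lamb1 and Nid1). Alternatives were other detection minimums, the highest row per gene, rescaled libraries, another pseudocount, other filters on low values and each replicate alone. Versions were Python 3.11.15, scipy 1.17.1, pandas 2.3.3, matplotlib 3.10.9 and numpy 2.4.6.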

Additional observations from a re-analysis of the deposited data

How the results depend on the processing

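Of 42 recomputed values 39 stayed within 1.5 times the count reported or, for levels and ratios, within 1 SD. Not all of these values could move. Among the genes found by symbol only Itga8, listed at 0, had several rows. Taking the highest row therefore could not change their levels, ratios, pairs or trimers. The 7 allowed integrin pairs became 4 with a detection minimum of 10 RPKM, since Itga5, Itgae, Itgb7 and Itga3 are below it (9 pairs at 0.3 RPKM and 5 at 3 RPKM). The 4 laminin trimers were 4 at 3 and 10 RPKM and 5 at 0.3 RPKM. The detected genes numbered 23 at a minimum of 0.3 RPKM, with Itga9, Itgal, Itgb2 and Lamc3 added, 15 at 3 RPKM and 14 at 10 RPKM, and those of the 6 related lists 80, 61 and 48, against 70 at 1 RPKM. Rescaling each library to a sum of 1000000 gave 22 genes, 8 pairs and 5 trimers. The median of the 19 detected genes, 23.6 RPKM, became 54.0 on that scale and ranged from 24.3 to 27.5 RPKM with either replicate left out. Each replicate alone gave the same 19 detected genes, 7 pairs and 4 trimers. The log2 ratio of Lama1 between replicates, 0.47, became 0.49 with the other pseudocount or with scaling. Row choice and filters could not change it, since Lama1 has 1 row and lies above every minimum tried. The median log2 ratio over the detected genes, 0.05, was 0 with no minimum and 0.07 with a minimum of 10 RPKM. No paired analysis was possible because the series holds 1 group. Depth limits the chains below about 2 RPKM most, where Itgae, Itgb7, Itga2b and Itga3 rest on 11 to 23 reads per library.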
